A study of Homo sapiens with 32 samples.

Results

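Paclitaxel plus SM08502 was compared with SM08502 alone in Ishikawa-S33Y cells, which asks what the taxane adds to the transcriptome of cells that already receive the kinase inhibitor. The comparison used 4 of the 32 RNA sequencing libraries of the study, chosen by their sample labels: 2 libraries of the combination and 2 of SM08502. Ishikawa-S33Y is labelled as CTNNB1-mutated and derives from the Ishikawa endometrial cancer line, in which CTNNB1, the gene of beta-catenin, is wild-type; S33Y names the activating beta-catenin substitution. Cells were plated in duplicate and treated for 24 h with 6 nM paclitaxel, 85 nM SM08502, both, or vehicle (0.1% DMSO), each drug at the concentration that inhibited viability of this line by 50%. The SM08502 group therefore carries the same kinase inhibitor dose as the combination, and the groups differ by the 6 nM paclitaxel. The study also treated Ishikawa, SNGM and HEC265 cells with their own doses, so dose and line cannot be told apart. Paclitaxel and SM08502 were given at 11 and 80 nM in Ishikawa, 11.7 and 350.7 nM in SNGM, and 5.6 and 149 nM in HEC265. RNA input was 350 ng for the Ishikawa libraries and 500 ng for those of the other lines, Ishikawa-S33Y included. No label says whether Ishikawa-S33Y is 1 clone or whether the duplicate platings were made on separate days, so p-values measure the spread between these libraries, which may be technical.

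Paclitaxel binds beta-tubulin within microtubules and stabilises them, which disturbs the mitotic spindle. The CDC-like kinases (CLK1 to CLK4) phosphorylate SR proteins, splicing factors that bind exons and recruit the splicing machinery; SM08502 inhibits these kinases. Tubulin mRNAs are known to be controlled by the amount of free tubulin dimer in the cell: more free dimer shortens the life of tubulin mRNA, and less free dimer lengthens it.

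Values are given as CPM, the reads of a gene scaled to a common library total, and differences as log2(CPM + 1) of the combination minus SM08502, a scale that understates the change of genes with low values. Depth was 17143467 to 23852360 reads in 7 of the 8 Ishikawa-S33Y libraries and 2991041 reads in combination replicate 2, where 1 read is worth 0.334 CPM and 17764 genes were detected, against 22119 to 23132 in the other 7. Between replicates, the root mean square log2 difference over 8173 genes was 0.273 for the combination, 0.112 for SM08502, 0.105 for vehicle and 0.0900 for paclitaxel. The comparison therefore centres on 11849 genes, called well-expressed here, with a mean of at least 5 CPM over the 4 compared libraries, which is 15 reads in the shallow library. As a check of the cell type, 8 of 10 epithelial markers were well-expressed, including the keratins KRT8 and KRT18 and the adhesion genes EPCAM and CDH1. Of 8 immune, 5 endothelial and 8 stromal markers, 1 each was well-expressed (CD68, VWF and COL1A1). Summed immune and summed endothelial markers lay between 5.35 and 11.8 CPM in the 8 libraries, whereas COL1A1, a collagen gene on the stromal list, had 707 to 1158 CPM in them.

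Many genes differed between SM08502 and vehicle in these cells, while the direct comparison of the combination with SM08502 called few in the fit to all libraries. By limma with Benjamini-Hochberg adjustment at 0.05, in a fit to all 32 libraries, 11 of the 11849 well-expressed genes were called between the combination and SM08502 (0.0928%): 4 were higher (0.0338%) and 7 lower (0.0591%). Over all 17011 genes tested, 22 were called (0.129%), 10 higher (0.0588%) and 12 lower (0.0705%). In the same fit, SM08502 against vehicle called 4946 of the 17011 genes tested (29.1%), and the combination against vehicle called 7147 of them. Paclitaxel against vehicle called 0 there, with 122 at an unadjusted p under 0.05. For paclitaxel against vehicle, limma voom on recovered reads also called 0 over the 32 libraries, and 1 (TUBA1A) over the 8 Ishikawa-S33Y libraries. Other lines enter the 32-library fit with wider replicate spread, up to 0.583 in Ishikawa. A limma fit to the 8 Ishikawa-S33Y libraries alone called 231 well-expressed genes (1.95%), 33 higher (0.279%) and 198 lower (1.67%), 6 of them among the 11. Of the 231, 228 had adjusted p above 0.04, and the smallest was 0.0292, so these calls lay just under the threshold. With limma voom on reads recovered from the CPM, 1 well-expressed gene (KIF4B, 0.00844%) was called over the 32 libraries and 840 (7.09%) over the 8, 229 higher and 611 lower, and the 840 held all 231. The share of higher genes among the 8-library limma calls was 14.3%, against 26.4% after re-centring and 27.7% after quantile normalization. The count depended on single libraries: without SM08502 replicate 1, both limma fits called 0 well-expressed genes (an unadjusted p under 0.05 was reached by 539 and 1397), and without SM08502 replicate 2 they called 4 and 0 (2144 at an unadjusted p under 0.05 in the latter). Without combination replicate 2, the shallow library, they called 3 and 1882 genes, and the 1882 held all 231; without combination replicate 1 they called 509 and 4282.

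The 6 falls described from the 32-library fit have diverse roles: a lactate transporter, a kinase of amino acid breakdown, a tRNA synthetase, a tight junction gene, a protein quality control gene and a complement-related protease gene. CLDN4 encodes claudin-4, a tight junction protein of epithelia (chromosome 7, 73830996 to 73832690, RefSeq on GRCh38.p14, as for all positions given). CLDN4 had 96.5 and 94.5 CPM in vehicle, 91.6 and 90.6 in paclitaxel, 58.0 and 52.5 in SM08502, and 37.6 and 31.4 in the combination. Both combination libraries lay below both SM08502 libraries, which lay below both vehicle libraries. CLDN4 fell by 0.67 ± 0.12 from SM08502 to the combination (SE; limma adjusted p = 0.0233). The differences of SM08502 from vehicle and of the combination from SM08502 share the SM08502 libraries, so their values are set side by side without a test of their relation. SLC16A3, the lactate exporter MCT4 (chromosome 17, 82217934 to 82240086), had 86.0 and 83.7 CPM in vehicle, 75.1 and 72.5 in paclitaxel, 44.2 and 33.8 in SM08502 and 24.3 and 21.1 in the combination. Its order was the same, with no overlap between neighbouring groups, and it fell by 0.75 ± 0.13 from SM08502 to the combination (limma adjusted p = 0.0233).

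BCKDK, the kinase that inhibits branched-chain ketoacid dehydrogenase (chromosome 16, 31108386 to 31117640), had 68.8 and 71.4 CPM in vehicle, 66.8 and 65.3 in paclitaxel, 57.3 and 54.3 in SM08502 and 34.7 and 32.8 in the combination. Both SM08502 libraries lay below both vehicle libraries for BCKDK. In the 32-library fit its difference from vehicle was -0.32 with SM08502 (limma adjusted p = 0.0596) and -0.08 with paclitaxel, neither called. BCKDK fell by 0.71 ± 0.13 with paclitaxel on SM08502 (limma adjusted p = 0.0233). DARS, cytosolic aspartyl-tRNA synthetase (chromosome 2, 135905881 to 135985684), had 97.9 and 100.4 CPM in vehicle, 102.6 and 101.7 in paclitaxel, 54.7 and 50.8 in SM08502 and 32.5 and 33.1 in the combination. Paclitaxel alone left it near vehicle, and on SM08502 it fell by 0.67 ± 0.13 (limma adjusted p = 0.0336). In the 8-library limma fit CLDN4 and SLC16A3 had adjusted p of 0.0462, and BCKDK and DARS had 0.0292.

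C1RL, a complement C1r-like protease gene (chromosome 12, 7094554 to 7109214), had 9.81 and 9.35 CPM in vehicle, 12.03 and 11.2 in paclitaxel, 9.22 and 8.64 in SM08502 and 4.88 and 4.35 in the combination, where the shallow library held 13 of its reads. The SM08502 libraries lay just below the vehicle ones (-0.09), and C1RL fell by 0.82 ± 0.15 from SM08502 to the combination (limma adjusted p = 0.0233). ANKZF1, a ribosome quality control gene (chromosome 2, 219229806 to 219236679), had 29.5 and 33.2 CPM in vehicle, 35.4 and 32.9 in paclitaxel, 22.5 and 15.6 in SM08502 and 11.2 and 8.69 in the combination. The SM08502 libraries were far apart for ANKZF1, and the fall of 0.86 ± 0.16 (limma adjusted p = 0.0243) was not called in the 8-library limma fit (adjusted p = 0.0729). In the RefSeq table ANKZF1 overlaps GLB1L, C1RL overlaps C1RL-AS1 and SLC16A3 overlaps CSNK1D; the strand of counting is not given in the sources used here, so reads of such neighbours may be mixed.

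The 4 well-expressed genes called higher encode a kinesin, a poly(A) polymerase, a trafficking regulator and a zinc finger protein, and each was also higher in SM08502 than in vehicle in both libraries. KIF4B, a chromokinesin gene (chromosome 5, 155013755 to 155018141), was nearly silent in vehicle (0.197 and 0.21 CPM) and paclitaxel (0.305 and 0.155), had 3.91 and 5.14 CPM in SM08502 and 12.7 and 9.03 in the combination. It rose by 1.09 ± 0.16 over SM08502 (limma adjusted p = 0.0112), with 247 and 27 reads in the combination libraries. KIF4B is a copy of KIF4A, a kinesin of the mitotic spindle, so reads may be split between the genes. KIF4A had 56.8 and 60.5 CPM in vehicle, 60.1 and 63.0 in paclitaxel, 31.6 and 30.3 in SM08502 and 29.3 and 35.4 in the combination. For KIF4A the SM08502 and combination libraries overlap, and both groups lay below vehicle. FAM46C, also named TENT5C, encodes a poly(A) polymerase (chromosome 1, 117606048 to 117628389) and had 2.17 and 2.39 CPM in vehicle, 3.10 and 3.51 in paclitaxel, 4.73 and 5.43 in SM08502 and 8.63 and 14.0 in the combination. FAM46C rose by 0.99 ± 0.19 (limma adjusted p = 0.0336), and without the shallow library the difference was 0.67 and not called.

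SMAP1, an ARF GTPase-activating protein gene of endocytosis (chromosome 6, 70667883 to 70862015), had 4.14 and 3.90 CPM in vehicle, 7.41 and 7.75 in SM08502 and 12.8 and 12.04 in the combination. It rose by 0.64 ± 0.12 (limma adjusted p = 0.0336); SMAP1 overlaps B3GAT2 in the RefSeq table. ZNF180, a zinc finger gene (chromosome 19, 44474431 to 44500522), had 13.2 and 15.6 CPM in vehicle, 20.3 and 20.1 in SM08502 and 27.95 and 34.8 in the combination, a rise of 0.60 ± 0.11 (limma adjusted p = 0.0336). None of the 4 rises passed in the 8-library limma fit (adjusted p from 0.0526 to 0.0782), whereas all 4 did there with limma voom (adjusted p from 0.00565 to 0.0221).

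**Figure D1:**
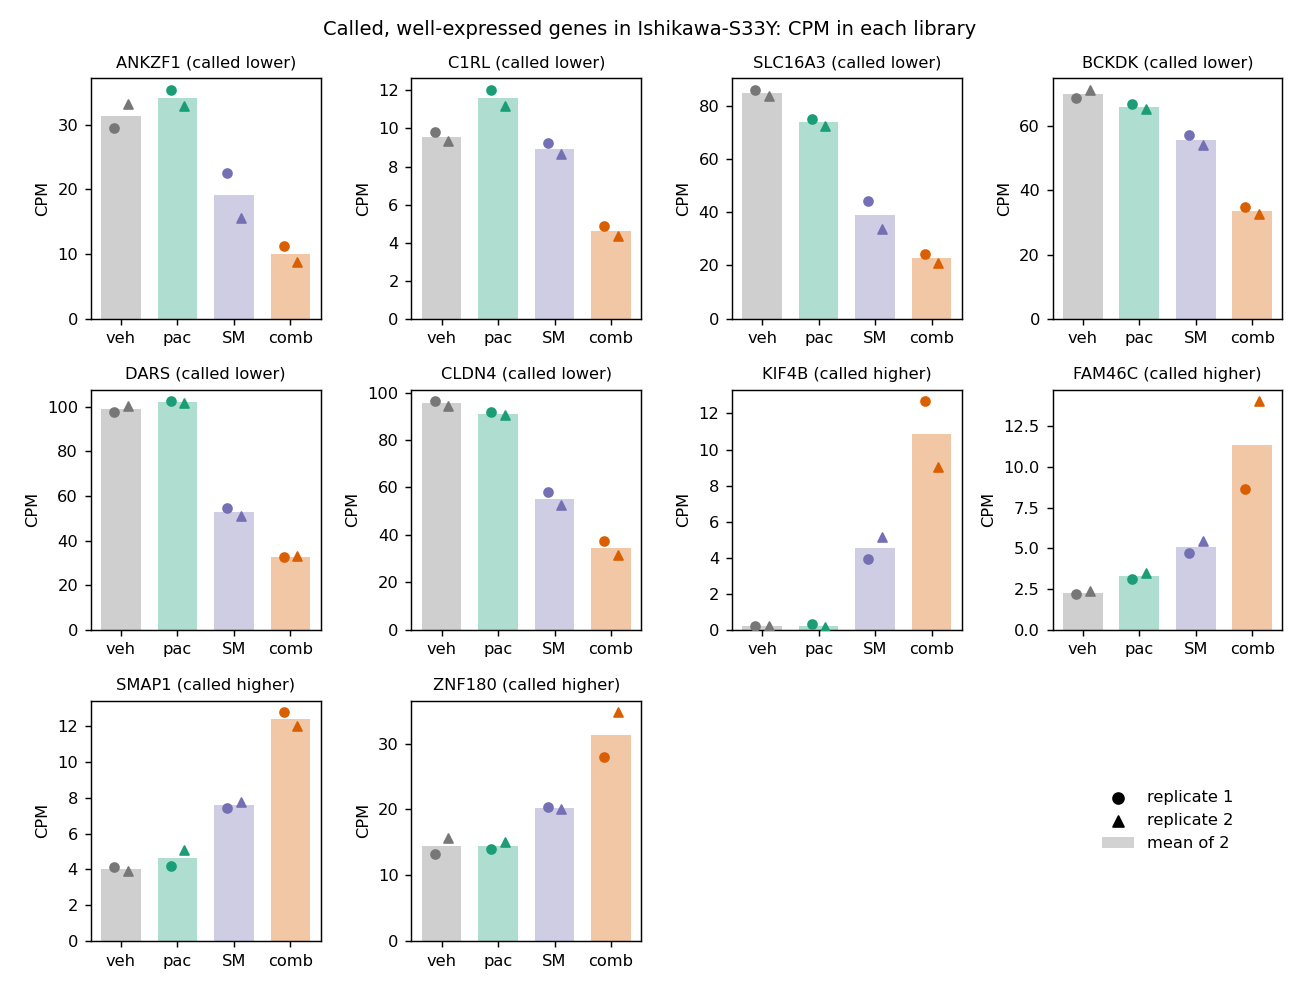
CPM of 10 of the 11 called, well-expressed genes in each Ishikawa-S33Y library (y axis, CPM) under vehicle (veh), paclitaxel (pac), SM08502 (SM) and the combination (comb); bars are means of 2 libraries, circles replicate 1 and triangles replicate 2. In each panel the 2 combination libraries lie on 1 side of the 2 SM08502 libraries, as for CLDN4 at 37.6 and 31.4 against 58.0 and 52.5 CPM.

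Below 5 CPM a further 11 genes were called, where a combination value rests on few reads. SELPLG, which encodes the P-selectin ligand PSGL-1, had 2.98 and 2.07 CPM in SM08502 and 7.14 and 6.02 in the combination, with 18 reads in the shallow library; its log2 difference was 1.11 ± 0.18 (limma adjusted p = 0.0233). TNNC2, fast skeletal troponin C, had 1.40 and 1.09 CPM in SM08502 and 2.52 and 3.68 in the combination, with 11 reads in the shallow library. GPRIN2 had 2.33 and 2.22 CPM in SM08502 and 1.23 and 0.669 in the combination, where the last value is 2 reads. The other 3 with the smallest p in this class were unnamed transcripts: RP3-391O22.3 and AC090286.2 were higher by 1.27 and 0.78, and RP11-215A19.2 was lower by 0.80.

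Just outside the threshold stood ATF3, a stress-induced transcription factor, with 5.13 and 7.06 CPM in SM08502 and 9.10 and 12.4 in the combination (log2 difference 0.72 ± 0.15, limma adjusted p = 0.0552). DONSON, a replication fork protein gene, had 20.1 and 21.3 CPM in SM08502 and 30.8 and 33.8 in the combination (0.62 ± 0.13, limma adjusted p = 0.0552). For both genes the groups did not overlap, and DONSON was called in the 8-library limma fit (adjusted p = 0.0462) whereas ATF3 was not (0.105). ID2, an inhibitor of helix-loop-helix factors, had 12.7 and 14.7 against 19.3 and 22.7 CPM, and CASS4, a scaffold of focal adhesions, 4.49 and 4.30 against 10.6 and 9.70 CPM. C20orf27 was the closest of the genes with a negative difference, at 15.9 and 15.2 CPM in SM08502 and 11.1 and 8.36 in the combination. ID2, CASS4 and C20orf27 had limma adjusted p of 0.0552 or 0.0553, and CASS4 passed in the 8-library limma fit (0.0462).

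The 8-library fit called further genes lower, and those named here were chosen after their values were seen. LOXL4, a lysyl oxidase-like enzyme of the extracellular matrix, had 68.6 and 69.6 CPM in vehicle, 57.9 and 57.5 in paclitaxel, 20.7 and 19.4 in SM08502 and 10.5 and 11.0 in the combination. Its 4 groups did not overlap, and it fell by 0.84 from SM08502 to the combination (8-library limma adjusted p = 0.0292), which was not called in the 32-library fit (0.0778). PLEC, the cytolinker plectin, had 168 and 138 CPM in SM08502 and 86.8 and 85.9 in the combination, with 8-library limma adjusted p of 0.0462. Further falls in that fit were ANXA11, an annexin (89.2 and 88.9 to 63.4 and 63.2 CPM), TEX261 (70.3 and 68.7 to 48.0 and 49.5), the choline transporter-like gene SLC44A2 (152.8 and 141.8 to 103.7 and 103.3) and CAMKK2, a kinase upstream of AMPK (36.2 and 36.2 to 25.4 and 25.1).

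Of the 33 genes called higher in the 8-library fit, 5 are given here, also chosen after their values were seen. PNN, the SR-related protein pinin, had 75.9 and 75.7 CPM in vehicle, 74.1 and 78.5 in paclitaxel, 147 and 149 in SM08502 and 197.5 and 193.6 in the combination. It rose by 0.40 in that fit (8-library limma adjusted p = 0.0462) and was not called in the 32-library fit (0.508). RBM25 and LUC7L2, both splicing factors, also had higher values without overlap, at 188 and 188 against 259 and 239 CPM for RBM25 and 104 and 103 against 131 and 130 for LUC7L2. CDK2, the S-phase cyclin-dependent kinase, had 115 and 120 CPM in SM08502 and 144 and 149 in the combination, and LRR1, a ubiquitin ligase subunit that acts on the replisome, 40.1 and 39.1 against 53.4 and 53.2. RBM25, LUC7L2, CDK2 and LRR1 each had an 8-library limma adjusted p of 0.0462.

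Tubulin transcripts tended to higher values with paclitaxel on either background. Of 14 tubulin genes, all well-expressed, 12 had a positive difference between combination and SM08502, with a median of 0.220 against -0.0341 for all well-expressed genes. For 9 of the 14 both combination libraries lay above both SM08502 libraries and for 0 both lay below, against 20.3% and 28.1% of all well-expressed genes. TUBA1A, an alpha-tubulin gene, had 84.1 and 89.1 CPM in vehicle, 121 and 123 in paclitaxel, 85.5 and 79.5 in SM08502 and 114 and 109 in the combination. Both libraries with paclitaxel lay above both without it on each background; the difference was 0.49 on vehicle and 0.43 on SM08502. TUBA1A rose on SM08502 in the 8-library limma fit (adjusted p = 0.0462) and not in the 32-library fit (0.237). It was also the single gene called between paclitaxel and vehicle by limma voom on the 8 libraries (adjusted p = 0.0379), chosen for naming after that value was seen.

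For TUBA1B, TUBB, TUBB2A and TUBA4A, too, both combination libraries lay above both SM08502 libraries. TUBA1B had 2909 and 2997 CPM in SM08502 and 3989 and 3546 in the combination, against 2670 and 2775 in vehicle and 3191 and 3280 in paclitaxel. TUBB, a beta-tubulin gene, had 943 and 927 CPM in SM08502 and 1315 and 1038 in the combination. TUBB2A had 23.4 and 23.2 against 33.1 and 28.1, and TUBA4A 106 and 105 against 123 and 131. TUBA1B, TUBB, TUBB2A and TUBA4A were not called by either limma fit and were called higher, with TUBA1A, by 8-library limma voom (5 of 14, against 1.93% of well-expressed genes). The 2 tubulins with negative differences were TUBG1, the gamma-tubulin that nucleates microtubules (-0.16), and the beta-tubulin TUBB4A (-0.08). On vehicle, paclitaxel gave a positive difference in 13 of 14 tubulins with a median of 0.227, from libraries that the other contrast does not use. The tubulin median on SM08502 stayed positive, from 0.153 to 0.266, when libraries were re-centred, quantile normalized, thinned to the shallow depth or left out in turn. Several tubulin genes are near-identical in sequence, so reads may be split among them.

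**Figure D2:**
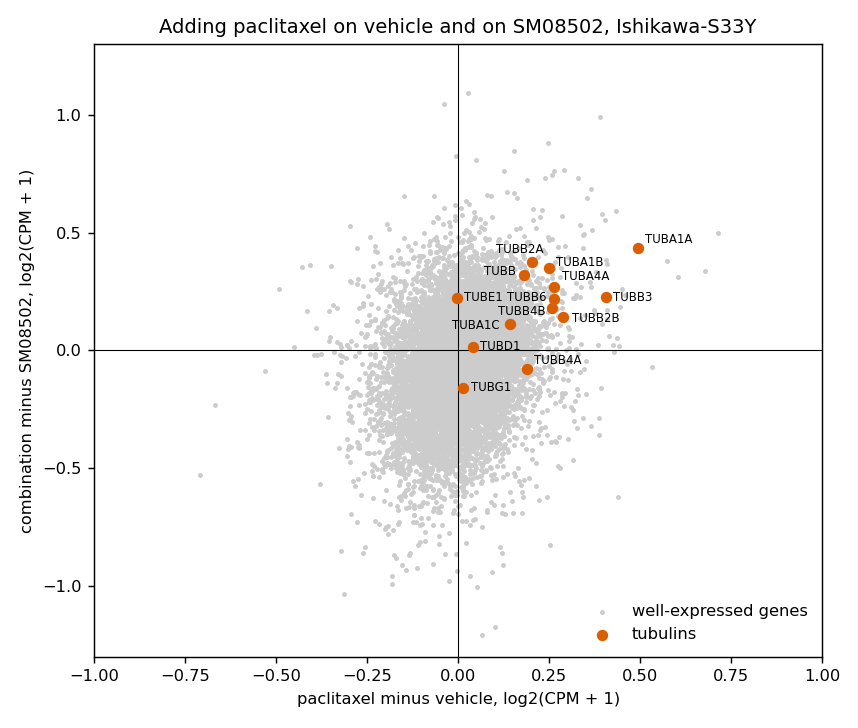
Each point is 1 of 11849 well-expressed genes, with the paclitaxel minus vehicle difference on the x axis and the combination minus SM08502 difference on the y axis, both in log2(CPM + 1); 8 genes lie outside the plotted range. The 14 tubulins are marked, and TUBA1A lies at 0.49 and 0.43.

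Over the 11849 genes, the difference that paclitaxel made on SM08502 and on vehicle had Pearson's r of 0.294 and Spearman's rho of 0.277. This is a description across genes of 4 libraries against 4 others, and genes are not independent replicates. The spread of the differences over genes was wider on SM08502 (SD 0.220) than on vehicle (SD 0.107), the former with the shallow library in it.

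Genes of the microtubule and mitotic apparatus other than tubulins gave smaller values. Of 20 microtubule regulators 10 were positive, with a median of -0.00599. Both combination libraries lay above both SM08502 libraries for 4 of them (20%, against 20.3% of all well-expressed genes). For another 4 both lay below (20%, against 28.1%). HDAC6, a tubulin deacetylase, had 30.2 and 27.4 CPM in SM08502 and 19.7 and 21.7 in the combination (log2 difference -0.46, limma adjusted p = 0.143; 8-library limma 0.0514). DYNC1H1, the dynein heavy chain, had 423 and 346 against 277 and 321 CPM. MAP4, which binds along microtubules, had 188 and 166 against 135 and 142. HDAC6, DYNC1H1 and MAP4 had lower values without overlap and were called by neither limma fit on log values. By 8-library limma voom these 3 of 20 were called lower, against 5.16% of well-expressed genes. HDAC6 was also called after quantile normalization of the 32 libraries (limma adjusted p = 0.0491).

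Of 28 mitosis and spindle checkpoint genes, 19 were positive with a median of 0.0879, and neither limma fit called one. BUB3, a checkpoint protein, had 191 and 184 CPM in SM08502 and 224 and 210 in the combination and was the only member called higher by 8-library limma voom. CCNB1, the mitotic cyclin B1, had 381 and 382 CPM in SM08502 and 412 and 427 in the combination (difference 0.14, limma adjusted p = 0.786). CDK1 had 144 and 143 against 155 and 186, and CENPA, the centromeric histone H3 variant, 41.5 and 40.8 against 50.5 and 45.5. Without the shallow library 15 of the 28 were positive and their median was 0.0122.

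Genes of DNA replication had no common direction, with 9 of 20 positive and a median of -0.00945. CCNE2, cyclin E2, had 12.1 and 11.9 CPM in SM08502 and 15.9 and 23.1 in the combination (0.63, limma adjusted p = 0.131). The CCNE2 difference was 0.38 without the shallow library and 0.89 without combination replicate 1, where it was called (limma adjusted p = 0.00838). MCM7, a subunit of the replicative helicase, had 67.1 and 66.7 CPM against 104 and 65.9, so its groups overlap and its difference rests on combination replicate 1; the MIR25 cluster lies inside MCM7.

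Replication-dependent histone genes, whose transcripts are made in S phase and mostly lack a poly(A) tail, had mostly lower values in the combination. Of 89 listed, 41 were well-expressed, and 37 of these had a negative difference, with a median of -0.346. For 32 of the 41 (78%) both combination libraries lay below both SM08502 libraries, against 28.1% of all well-expressed genes. Summed over the list, histone transcripts had 7342 and 7556 CPM in vehicle, 6703 and 7078 in paclitaxel, 6582 and 6339 in SM08502 and 5381 and 5002 in the combination. The sums in the combination lay below all other Ishikawa-S33Y libraries. HIST1H3B, an H3 gene, had 332 and 323 CPM in SM08502 and 250 and 253 in the combination, and HIST2H3D 115 and 116 against 81.9 and 82.6. HIST1H3A had 72.3 and 69.0 CPM against 46.0 and 52.8.

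The 32-library limma fit called 0 histone genes. Of the 41 well-expressed ones 10 reached an unadjusted p under 0.05, as did 10.9% of all well-expressed genes. In the 8-library limma fit 6 of the 63 histone genes tested fell (203 of all 17011 genes tested, and 1.67% of well-expressed genes, did). HIST1H3A, HIST1H3B and HIST2H3D were among the 6, each with limma adjusted p of 0.0462. By 8-library limma voom 17 of the 63 histone genes tested were called lower (620 of all 17011 genes tested, and 5.16% of well-expressed genes, were). HIST2H3A and HIST2H3C carry identical values in every library, and histone copies are near-identical, so the genes are not separate observations. HIST2H2AA4 had the most negative value (-0.69) from 436 and 430 CPM in SM08502 and 377 and 189 in the combination, while its copy HIST2H2AA3 had 0.35. The list median lay between -0.386 and -0.249 in the settings tried. Per the labels' protocols the libraries were made by ribosomal RNA depletion. In bulk RNA, fewer cells in S phase and fewer histone transcripts per cell cannot be told apart.

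Epithelial markers had lower values in the combination. All 8 well-expressed members had negative differences, with a median of -0.349, and in all 8 both combination libraries lay below both SM08502 libraries, as for 28.1% of all well-expressed genes. Their summed level was 3650 and 3576 CPM in vehicle, 3231 and 3300 in paclitaxel, 2100 and 1871 in SM08502 and 1610 and 1521 in the combination. KRT8, a keratin of simple epithelia, had 1616 and 1545 CPM in vehicle, 1360 and 1382 in paclitaxel, 719 and 595 in SM08502 and 507 and 433 in the combination. KRT18, its partner, had 405 and 356 CPM in SM08502 and 290 and 305 in the combination, and E-cadherin (CDH1) 167 and 152 against 126 and 127. EPCAM, another adhesion gene, had 254 and 252 CPM against 241 and 249, a difference of -0.05. CLDN4 was the only member called in the 32-library fit; 2 members (CLDN4 and CDH1) were called lower by the 8-library limma fit and 5 by 8-library limma voom (CDH1, CLDN4, KRT18, KRT8 and PAX8; 5.16% of well-expressed genes were). KRT8 and KRT18 overlap in the RefSeq table. COL1A1, the only well-expressed stromal marker, had 891 and 816 CPM against 708 and 707 (difference -0.27). The only well-expressed immune marker, CD68, had 6.65 and 5.98 CPM in SM08502 and 5.91 and 3.68 in the combination (-0.36). The only well-expressed endothelial marker, VWF, had 8.23 and 8.35 against 7.09 and 4.35 (-0.50). COL1A1, CD68 and VWF were not called by either limma fit. By 8-library limma voom 1 of the 5 stromal markers tested was called lower, and no immune or endothelial marker was. Of all 17011 genes tested, that fit called 620 lower. The part of other cell types in these values was not tested.

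Genes of sterol and fatty acid synthesis were mixed in direction. Of 20 well-expressed genes on the cholesterol list 8 were positive (40%, against 43.2% of all well-expressed genes), with a median of -0.132 against -0.0341, and 10 lay below both SM08502 libraries (50%, against 28.1%). FADS2, the delta-6 fatty acid desaturase, had 293 and 294 CPM in vehicle, 266 and 270 in paclitaxel, 118 and 111 in SM08502 and 68.8 and 81.2 in the combination. It fell by 0.61 in the 8-library limma fit (adjusted p = 0.0462), and the 32-library fit gave 0.0804. SREBF2, the transcription factor of sterol synthesis, had 104 and 96.1 CPM against 80.9 and 74.6 and fell in the 8-library limma fit (adjusted p = 0.0488). Within the list NSDHL, another enzyme of the pathway, had 23.9 and 22.2 CPM against 28.4 and 27.7, a positive difference that was not called. Of 9 well-expressed actin and SRF target genes 1 was positive (11.1%, against 43.2% of all well-expressed genes), with a median of -0.136. For 7 of the 9 both combination libraries lay below both SM08502 libraries (77.8%, against 28.1%), and for 0 both lay above (against 20.3%). FLNA, filamin A, had 1025 and 927 CPM in SM08502 and 666 and 800 in the combination. ACTB had 4875 and 5090 against 4499 and 4565 (-0.14), close to the list median. Neither limma fit called an actin or SRF target gene, and 8-library limma voom called FLNA and CNN2 lower (5.16% of well-expressed genes were).

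**Figure D3:**
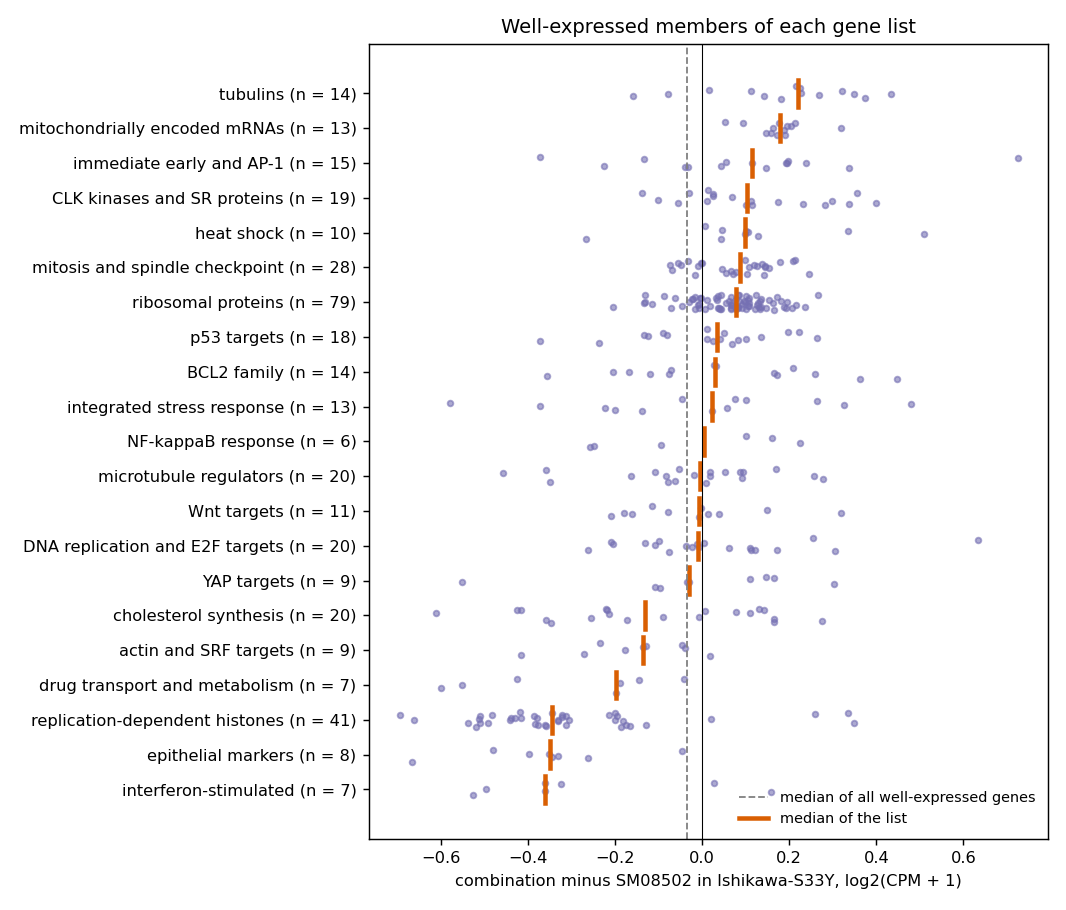
Combination minus SM08502 difference in log2(CPM + 1) (x axis) of the well-expressed members of each list with at least 5 of them (y axis); points are genes, orange bars list medians and the dashed line the median of all well-expressed genes, -0.0341. The tubulin median lies at 0.220 and the histone median at -0.346.

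The CLK kinases showed small differences, while the list that holds them and the SR proteins had mostly positive ones. The 32-library limma fit called no member. CLK1 had 17.6 and 18.6 CPM in vehicle, 22.6 and 24.9 in paclitaxel, 61.5 and 60.3 in SM08502 and 71.5 and 66.2 in the combination, a further difference of 0.17 ± 0.14 (limma adjusted p = 0.681). CLK2 (33.02 and 31.2 against 30.6 and 31.1 CPM), CLK3 (81.6 and 78.4 against 80.2 and 81.2) and CLK4 (25.1 and 25.4 against 26.7 and 27.8) differed by -0.06, 0.01 and 0.10, none called. Among the 19 kinases and SR proteins 15 were positive (78.9%, against 43.2% of all well-expressed genes), with a median of 0.102. For 9 of the 19 both combination libraries lay above both SM08502 libraries (47.4%, against 20.3%). For 2 both lay below (10.5%, against 28.1%). Without the shallow library 12 of the 19 were positive and their median was 0.0448. SRSF11 had 73.6 and 75.3 CPM in SM08502 and 94.8 and 94.0 in the combination, and it was the member called higher in the 8-library limma fit. TRA2B, a splicing activator, had 228 and 230 CPM against 312 and 275, and SRSF6 262 and 268 against 349 and 305. TRA2A had 48.7 and 49.3 CPM against 73.2 and 57.5. SRSF6, SRSF10, SRSF11, TRA2A and TRA2B were called higher by 8-library limma voom (5 of 19, against 1.93% of well-expressed genes). CTNNB1 itself had 205 and 214 CPM in SM08502 and 232.5 and 232.0 in the combination (difference 0.15, limma adjusted p = 0.676). Of 11 well-expressed Wnt target genes 4 were positive, with a median of -0.0071. Neither limma fit called one; RNF43, a Wnt feedback inhibitor, had 15.3 and 14.6 CPM against 15.3 and 10.7, and DKK1 12.1 and 13.3 against 13.1 and 19.7.

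Neither limma fit called a gene of the p53 target or BCL2 family lists. CDKN1A, the p53-induced cell cycle inhibitor p21, had 18.5 and 16.4 CPM in SM08502 and 21.4 and 14.7 in the combination, which overlap (difference 0.02, limma adjusted p = 0.972). Of 18 well-expressed p53 targets 12 were positive, with a median of 0.033; SESN1, a stress-response gene, had 8.69 and 8.39 CPM against 10.5 and 10.4, and TP53I3 16.3 and 15.2 against 13.8 and 10.4. In the BCL2 family, whose members promote or block apoptosis, 8 of 14 were positive with a median of 0.0297. Both combination libraries lay above both SM08502 libraries for 5 of the 14 (35.7%, against 20.3% of all well-expressed genes). For 3 both lay below (21.4%, against 28.1%). By 8-library limma voom 2 of the 14 were called higher, against 1.93% of well-expressed genes. The pro-apoptotic genes BCL2L11 (BIM; 40.4 and 37.9 against 54.6 and 46.8 CPM) and PMAIP1 (NOXA; 10.0 and 10.8 against 16.2 and 13.04) did not overlap and were called higher only by 8-library limma voom. BCL2L1, which encodes BCL-xL, had 290 and 296 CPM against 270 and 252, and MCL1 154 and 155 against 155 and 162.

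Cytosolic ribosomal protein genes were positive in 60 of 79 cases, with a median of 0.0779. That direction rested on combination replicate 1: without it 30 of 79 were positive and the median was -0.0481. The 13 mitochondrially encoded mRNAs were all positive with a median of 0.178, but SM08502 replicates 1 and 2 differed in their sum (112000 and 134100 CPM; 136700 and 142600 in the combination). Without SM08502 replicate 1 their median was 0.0448, and after quantile normalization 8 of 13 were positive. The mitochondrial share of reads thus differed between the SM08502 libraries, and its part in the values of other genes was not tested.

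The same comparison in the other lines called 0 genes in Ishikawa, 43 in SNGM and 1 in HEC265 of 17011 in the 32-library limma fit, with 308, 2704 and 237 at an unadjusted p under 0.05. Limma fits to the 8 libraries of each line alone called 0 in Ishikawa, SNGM and HEC265 (219, 1180 and 2331 at that p). Combination replicate 2 of SNGM was also shallow, with 1607038 reads. Of the 11 genes called in Ishikawa-S33Y, 10 had the same sign in Ishikawa, 6 in SNGM and 8 in HEC265, and none was called there (smallest adjusted p 0.290, SLC16A3 in SNGM). CLDN4 had 82.6 and 92.7 CPM in SM08502 and 83.7 and 75.3 in the combination in Ishikawa, and 87.5 and 89.1 against 98.8 and 89.2 in HEC265. SLC16A3 had 24.5 and 26.4 CPM against 29.8 and 32.4 in SNGM, opposite in sign to Ishikawa-S33Y. KIF4B had 2.89 and 2.43 CPM against 3.91 and 4.25 in Ishikawa and stayed under 0.5 CPM in SNGM and HEC265. A test of the Ishikawa-S33Y difference minus the mean of the other 3 lines called 0 genes by limma, with 1496 at an unadjusted p under 0.05, and 0 by limma voom (916). For the 11 genes its adjusted p ranged from 0.118 to 0.288, so none was shown to differ between lines.

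**Figure D4:**
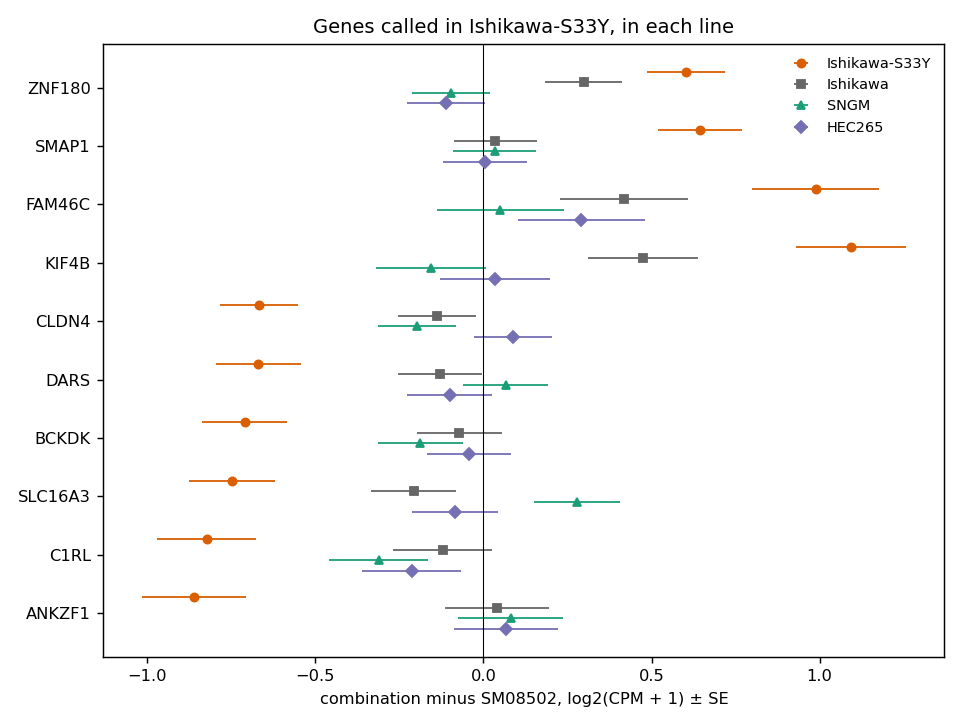
Combination minus SM08502 difference in log2(CPM + 1) with its standard error (x axis) for 10 of the 11 genes called in Ishikawa-S33Y (y axis). Each of the 4 lines is shown, with 2 libraries a group. The standard error is pooled over all libraries of the study in the main limma fit, so each gene has the same one in every line. The bars therefore do not show the replicate spread of each line. The Ishikawa-S33Y value lies farthest from 0 for each gene drawn, as chosen by the call, for example -0.75 for SLC16A3 against 0.28 in SNGM.

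Genes that SM08502 changed in another line were set against the Ishikawa-S33Y comparison, to ask how they stood when paclitaxel was added. These calls come from libraries that the Ishikawa-S33Y comparison does not hold. Genes that SM08502 lowered in Ishikawa (1213 well-expressed genes called) had a median difference of -0.148 in Ishikawa-S33Y, and both combination libraries lay below both SM08502 libraries for 51.8% of them, against 26.5% of the genes not called there. Genes that it raised in Ishikawa (866) had a median of 0.0703, with 38.5% lying above, against 20.2% of those not called, and the 9770 not called there had -0.0298. With HEC265 as the reference, the medians were -0.106 for 769 lowered genes and 0.0331 for 1413 raised genes. With SNGM they were -0.0714 for 564 lowered and 0.00286 for 544 raised genes. Across all 11849 genes, Pearson's r between the SM08502 response of the other line and the paclitaxel-on-SM08502 difference in Ishikawa-S33Y was 0.340 for Ishikawa, 0.200 for HEC265 and 0.0393 for SNGM.

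Genes lowered in Ishikawa thus lay lower, and genes raised there higher, than the genes not called, and the distance was smallest with SNGM. Paclitaxel against vehicle in Ishikawa-S33Y gave the same order over the Ishikawa classes with smaller medians, -0.0338 for lowered, 0.0174 for not called and 0.0629 for raised genes.

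**Figure D5:**
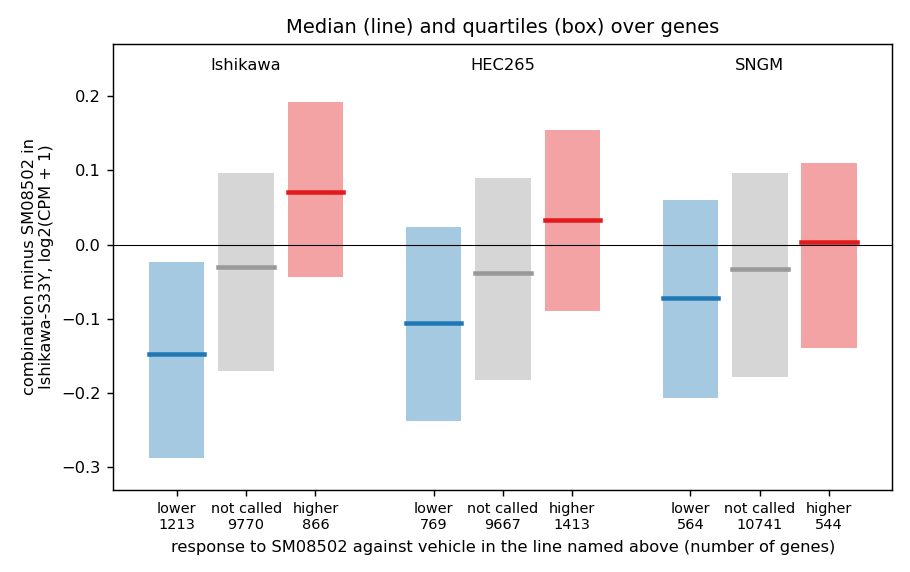
Combination minus SM08502 difference in Ishikawa-S33Y (y axis, log2(CPM + 1)) for well-expressed genes grouped by their call for SM08502 against vehicle in Ishikawa, HEC265 or SNGM (x axis, with gene numbers); lines are medians and boxes quartiles over genes. Genes lowered in Ishikawa have a median of -0.148 and genes raised there 0.0703.

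Whether paclitaxel acted differently on SM08502 than on vehicle was tested as the combination minus SM08502 difference less the paclitaxel minus vehicle difference. It called 0 of 17011 genes in the 32-library limma fit (811 at an unadjusted p under 0.05), 0 in the 8-library limma fit (1610) and 0 by 32-library limma voom (648). Limma voom on the 8 libraries called 1 gene, CEBPZOS, named after its value was seen, which encodes a mitochondrial protein. CEBPZOS had 87.7 and 86.1 CPM in vehicle, 95.5 and 96.6 in paclitaxel, 63.8 and 60.6 in SM08502 and 37.1 and 44.5 in the combination (limma voom adjusted p = 0.0456). Adjusted p for the 11 genes ranged from 0.228 for C1RL to 1 for FAM46C, so a departure from additivity was not shown for any of them.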

How the data were processed

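Per the labels' protocols, RNA was depleted of ribosomal RNA (FastSelect), made into libraries with the KAPA HyperPrep kit and sequenced on an Illumina NovaSeq instrument. The submitters' processing notes name bcl2fastq, kallisto, STAR and GRCh38, with no versions; which tool gave the expression table, its annotation and its strand setting are not given in the sources used here. The values the authors deposited are log10(CPM + 1) for 35238 genes in 32 libraries. They were taken back to CPM, from which whole reads were recovered for 100% of values (within 0.001 reads), and tested as log2(CPM + 1). Splicing tables were not analysed here.

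Samples were assigned to 16 groups of 2 from their titles. Genes with CPM above 1 in at least 2 libraries were kept (17011). limma 3.58.1 in R 4.3.3, with 1 mean per group, moderation and an intensity trend, was fitted to all 32 libraries (16 residual degrees of freedom, prior 4.90) and, as the chief alternative, to the 8 Ishikawa-S33Y libraries (4 residual, prior 3.22). Tests were two-sided, with Benjamini-Hochberg adjustment over all genes tested. On simulated data the 32-library fit called more unchanged genes than the threshold allows, mostly but not only below 5 CPM. The simulation gave every group the same variability, whereas the replicate spread of these libraries ran from 0.0851 to 0.583. It therefore cannot show how many of the calls here are false, or at which CPM. The replicate numbers were checked and do not pair the samples (correlations of deviations from -0.0302 to 0.0712).

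The comparison, its members and the 24 gene lists were chosen with earlier results of these data known. Named genes are the called genes (up to 15 rises and 15 falls among well-expressed genes), the uncalled well-expressed genes with the smallest p up to 8 in each direction, up to 6 called genes below 5 CPM, the 2 members of each list with the largest difference, and 9 fixed genes. Genes of the 8-library fit and other list members were named after their values were seen. Gene positions and overlaps come from the RefSeq table of GRCh38.p14, in which 80 of 85 named genes were found. Some genes that this rule names are not reported here.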

Additional observations from a re-analysis of the deposited data

How the results depend on the processing

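The main 32-library limma fit called 22 genes, 11 of them well-expressed, and the 8-library fit 231 well-expressed genes; the non-additivity and line-difference tests called 0. Without the filter these 5 counts became 183, 50, 79, 4 and 55. A minimum mean of 5 CPM gave 11 genes in all and 583 in the 8-library fit, and a minimum of 10 gave 4, 4 and 650. A pseudocount of 0.1 gave 6, 5 and 7. A pseudocount of 5 gave 136 and 75 in the 32-library fit, 4 for non-additivity and 14 for the line difference. Re-centring on the median gave 37 and 21, with 3 and 6 for these tests. Quantile normalization gave 136, 114 and 354, with 3 and 7. Without the intensity trend 34 genes were called in all and 0 in the 8-library fit. Limma voom on recovered reads gave 1, 1 and 840. Thinning reads to the shallow depth gave 1 (ALDH4A1), 1 and 0, and 1 (ULK4P3) for non-additivity; both genes were named after their values were seen. The 8-library fit gave 243 genes in all, and the 4 compared libraries alone 0 (1677 at an unadjusted p under 0.05). Leaving out each of the 4 libraries in turn gave 0 to 1269 genes in all and 0 to 509 well-expressed ones. It gave 0 to 4282 in the 8-library fit, 0 to 339 for non-additivity and 0 to 919 for the line difference. The highest count came without combination replicate 1 each time, where the shallow library alone stands for the combination and is assumed to vary like the other groups. With the replicate number as a block, although the numbers pair nothing, the 32-library fit called 28 genes (16 well-expressed) and the 8-library fit 0; the 2 interaction tests stayed at 0. Over the settings of named genes, 1226 gave the main call, 123 lost it, 61 gained one and 7 turned direction, all 7 in uncalled genes. Those were MCM7 (-0.0227 to 0.631 over the 4 left-out libraries, lowest without combination replicate 1), CDKN1A (-0.231 to 0.279, lowest without combination replicate 1 and -0.056 without SM08502 replicate 2), RNF43 (-0.447 to 0.0279, highest without combination replicate 2), CLK3 (-0.0149 to 0.0419, lowest without SM08502 replicate 2), CLK3 after thinning (-0.15) and MT-ND4 after quantile normalization (0). The causes of these shifts were not tested. All variations of the 8-library fit were chosen after seeing the data. The planned edgeR and DESeq2 fits were not run; limma voom on the recovered reads was used in their place. The 4-library fit gives no value for the interaction tests. Depth limits the combination most: in its shallow library 3 reads are 1.00 CPM, so genes below 5 CPM rest on few reads.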

Other observations

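The 32-library limma fit called no member of the stress and signalling lists in the combination against SM08502. Integrated stress response genes were positive in 7 of 13 cases with a median of 0.0217. The transcription factors ATF4 (257 and 258 CPM in SM08502, 335 and 286 in the combination) and DDIT3, which encodes CHOP (5.48 and 5.53 against 8.48 and 7.69), did not overlap and were called higher by 8-library limma voom. VLDLR, a lipoprotein receptor on the same list, had 34.0 and 23.7 against 21.7 and 16.1 CPM. Heat shock genes were positive in 9 of 10 cases (90%, against 43.2% of all well-expressed genes; 7 of 10 without combination replicate 1) with a median of 0.0991, but the HSPA1A difference of 0.51 rested on the shallow library (6.65 and 7.01 against 7.45 and 13.7 CPM). DNAJB9, a chaperone of the endoplasmic reticulum, had 22.4 and 22.8 against 26.8 and 30.8 CPM. Immediate early genes had a median of 0.114 over 15 genes, between ATF3 at 0.72 and JUND at -0.37. The 6 well-expressed NF-kappaB genes had a median of 0.00346, with NFKB2 at -0.26 and RELB at -0.25.

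Interferon-stimulated genes had a median of -0.361 over 7 genes against -0.0341 for all well-expressed genes, with 4 of 7 (57.1%, against 28.1%) below both SM08502 libraries. After thinning the median was -0.208. The RNA sensor DDX58 had 10.8 and 11.4 CPM in vehicle, 13.5 and 13.9 in paclitaxel, 10.8 and 10.2 in SM08502 and 7.61 and 6.69 in the combination (difference -0.50, limma adjusted p = 0.0778). DDX58 was thus above vehicle with paclitaxel alone and below SM08502 in the combination, with neither difference called. IFIT2 had 9.04 and 9.88 against 6.89 and 5.68 CPM, while IFIT1 overlapped (8.11 and 9.33 against 7.86 and 10.0).

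All 7 well-expressed drug transport and metabolism genes had negative differences, with a median of -0.199. ABCC1, the efflux pump MRP1, had 114.5 and 112.4 CPM in vehicle, 57.4 and 50.7 in SM08502 and 36.6 and 43.5 in the combination, and it was called lower by 8-library limma voom. ABCB1, the pump known to export paclitaxel, had 21.2 and 20.1 against 16.9 and 20.4 CPM, which overlap. CYP1A1 (7.47 and 9.28 against 5.29 and 5.02 CPM) and ABCC3 (6.83 and 6.32 against 5.14 and 3.34) rest on 15 and 10 reads in the shallow library. Among 9 YAP target genes, with a median of -0.0294, the receptor kinase AXL had 15.5 and 13.6 against 11.4 and 8.02 CPM and ANKRD1 24.2 and 26.7 against 28.4 and 35.1, neither called. MVD, an enzyme of sterol synthesis, had 12.3 and 11.5 against 9.56 and 7.69 CPM. HIST1H2BL, an H2B gene, had 21.4 and 18.9 against 14.2 and 10.7 CPM. RPS26, a ribosomal protein gene, had 49.6 and 54.5 against 54.5 and 72.2 CPM.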
